A study of Mus musculus with 12 samples.

Results

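Ovaries in which an oocyte transgene was the only stated source of Foxo3 (Tg Foxo3-/-) were compared with ovaries that carried 1 working Foxo3 allele and no transgene (NoTg Foxo3+/-). The comparison rests on 6 arrays, 3 per group, of the 12 arrays in the series. It asks what still differs from the heterozygote when Foxo3 is supplied by the transgene, and which of the changes seen in the plain null come back toward the heterozygote level. All samples were whole ovaries of FVB/N female mice at 14 dpn, the abbreviation the labels use for age. The groups were Tg Foxo3-/- (transgene, both Foxo3 alleles null), NoTg Foxo3-/- (no transgene, both alleles null), Tg Foxo3+/- (transgene, 1 allele null) and NoTg Foxo3+/- (no transgene, 1 allele null), with 3 arrays each. No group had 2 intact Foxo3 alleles, so the reference level here is that of a heterozygote. According to the series title, the transgene makes a constitutively active Foxo3 in oocytes. The sources used here give neither its promoter, construct and lines nor any pooling of animals.

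FOXO3 is a forkhead transcription factor that acts downstream of the Kit receptor, PI3 kinase and AKT. When AKT phosphorylates it, FOXO3 leaves the nucleus, and in mouse oocytes this export accompanies the start of growth of a resting primordial follicle. Mice without Foxo3 are known to activate their primordial follicles early and to use them up. A constitutively active form lacks the sites through which AKT exports it. In whole ovaries, fewer cells of a type and less RNA per cell cannot be told apart, and this holds for every gene below.

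RNA was measured on Illumina bead arrays, on which each gene is read by 1 or more probes. Values are log2 of background-corrected and quantile-normalized intensity, and a difference of 1 is 2-fold. A probe is said to be called, to have risen or to have fallen when its adjusted p in limma (Benjamini-Hochberg over all 22511 tested probes, two-sided) was under 0.05. Each array detected 20072 to 22015 probes, and arrays correlated with one another at 0.977 to 0.994. Oocyte markers (Zp3 13.85 and Gdf9 14.62 mean log2 intensity in Tg Foxo3-/-, against 13.23 and 14.35 in NoTg Foxo3+/-), granulosa cell Inha (13.35 against 13.04), theca cell Cyp17a1 (10.59 against 10.31) and stromal Dcn (13.25 against 13.74) were all bright. The fat markers Adipoq and Fabp4 and the oviduct marker Pax8 were too dim to test.

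Array background moved with the transgene. It was 74.2, 68.5 and 68.5 intensity units in the Tg Foxo3-/- arrays, against 79.8, 78.3 and 76.3 in the NoTg Foxo3+/- arrays. The difference of means was -7.73, with an exact two-sided permutation p of 0.1, the smallest that 3 arrays against 3 can give. The other groups followed the same split, with 79.9 to 81.2 in NoTg Foxo3-/- and 65.4 to 67 in Tg Foxo3+/-. Transgene state and array background cannot be told apart in these arrays, and a fit with background as a covariate called 0 probes between Tg Foxo3-/- and NoTg Foxo3+/- (1789 at an unadjusted p under 0.05). Its standard errors were wider, with a median of 0.326 against 0.162 without the covariate. Median scaling of the arrays in place of quantile normalization left 66 called probes (3143 at an unadjusted p under 0.05). Every one of the 1223 probes called in the comparison kept its sign in both of these settings. They were chosen for large differences on the same arrays, so their kept signs are no check on the background.

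**Figure D1:**
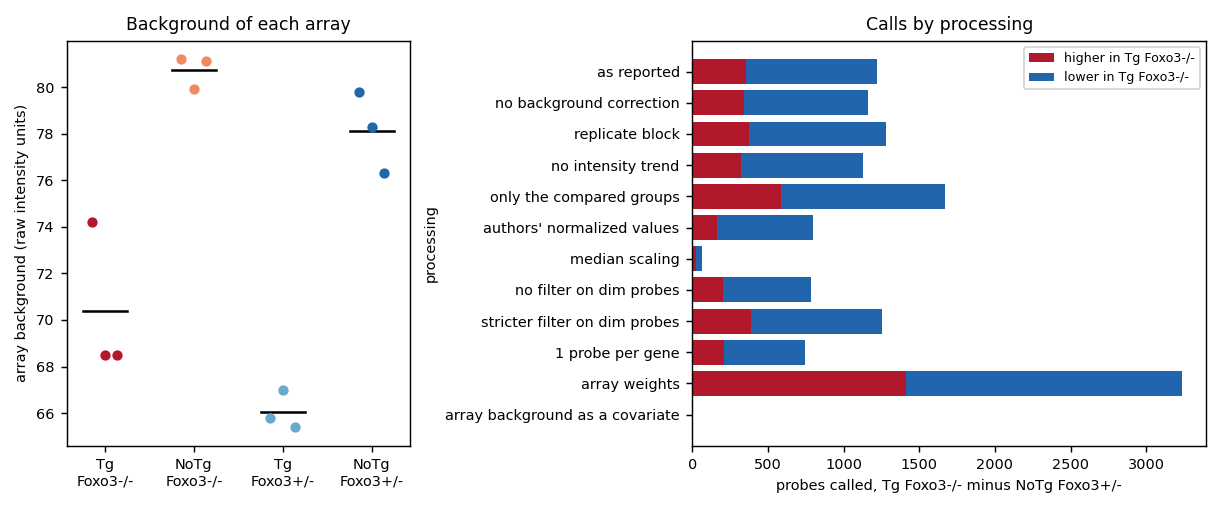
Left, background intensity of each array by group (points, with the group mean as a line, in linear intensity units). Right, number of probes called between Tg Foxo3-/- and NoTg Foxo3+/- under each way of processing, split into higher and lower; the count is 1223 as reported, 66 under median scaling and 0 with background as a covariate.

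Foxo3 itself could not be used to check the genotypes. Of its 3 probes, 1 was bright enough to test. It read 8.28, 8.36 and 8.19 log2 intensity in Tg Foxo3-/-, 8.44, 8.17 and 8.64 in NoTg Foxo3-/-, and 7.79, 7.91 and 8.43 in NoTg Foxo3+/- ovaries. The 3 groups overlapped. The differences from NoTg Foxo3+/- were 0.23 for Tg Foxo3-/- (limma adjusted p = 0.457) and 0.37 for NoTg Foxo3-/- (adjusted p = 0.32). The probe's place in the gene, inside or outside what was deleted or inserted, is not known here, so it checks no label.

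Between Tg Foxo3-/- and NoTg Foxo3+/- ovaries, 1223 probes were called, which is 5.43% of those tested, while 4678 had an unadjusted p under 0.05. Of these, 354 were higher (1.57%) and 869 lower (3.86%) in Tg Foxo3-/-, so that 28.9% of calls were higher. That share was 36.4% under median scaling and 20.5% in the authors' normalized values. The lower side held most of the large differences, with 124 probes past 2-fold, against 6 on the higher side. The higher probes mapped to 269 named genes and the lower probes to 707.

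The plain null had fewer calls. NoTg Foxo3-/- differed from NoTg Foxo3+/- at 205 probes (0.911% of those tested), 90 higher (0.4%) and 115 lower (0.511%). These 205 are called null changes here, and the values that chose them are given as description only. Of the null changes, 43.9% were higher, against 83.9% under median scaling and 89.9% in the authors' values. Under median scaling the median of all probes in this comparison was 0.139 log2, against 0.0065 as reported. The comparison of Tg Foxo3-/- and that of NoTg Foxo3-/- share the same 3 NoTg Foxo3+/- arrays, so a deviation of those arrays enters both.

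Of the 205 null changes, 147 (71.7%) were called with the same sign between Tg Foxo3-/- and NoTg Foxo3+/-, where 5.43% of all probes were called. They comprised 75 of the 90 higher null changes (83.3%) and 72 of the 115 lower ones (62.6%). The order of these shares turned under other scalings, with 96 of 169 higher (56.8%) and 16 of 19 lower (84.2%) in the authors' values, and 17 of 52 higher (32.7%) and 7 of 10 lower under median scaling. A further 22 probes (10.7%) approached the heterozygote, meaning that they were not called and that their difference was under 0.5 times that of the plain null or opposite to it. In the authors' values those that approached were 26 higher and 0 lower, in place of 6 and 16. The other 36 (17.6%) lay in between. The number called in the opposite direction was 0, and 203 of the 205 (99.0%) had the same sign in both comparisons. The shared NoTg Foxo3+/- arrays raise these shares by an amount that was not measured, so they describe the 205 probes and do not test persistence.

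The direct test of the transgene on the null background gave a sparser picture. Tg Foxo3-/- differed from NoTg Foxo3-/- at 43 probes (0.191% of those tested), 2 higher (0.00888%) and 41 lower (0.182%). Only 1 of the 205 null changes, a probe of Myo5b, was called in this test as moved back toward the heterozygote. In position, 162 of the 205 (79.0%) lay nearer to NoTg Foxo3+/- in Tg Foxo3-/- than in NoTg Foxo3-/- ovaries, 61 of the higher and 101 of the lower. The 205 were chosen for a large value in NoTg Foxo3-/-, which by itself places a second group nearer to the heterozygote, so this count is no sign of an effect of the transgene. The median of the 90 higher null changes was 0.64 log2 in Tg Foxo3-/- minus NoTg Foxo3+/-, beside 0.67 in NoTg Foxo3-/- minus NoTg Foxo3+/-. For the 115 lower ones the medians were -0.59 and -0.79 in the same order. The same limit holds for these medians, and no test of a difference between the higher and lower sides was made.

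**Figure D2:**
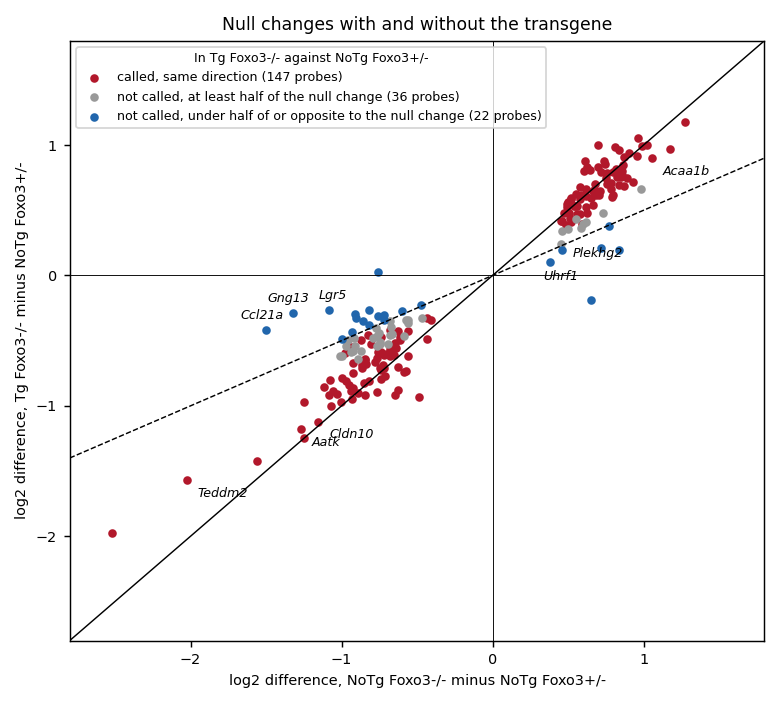
Each point is 1 of the 205 null changes, with its log2 difference in NoTg Foxo3-/- minus NoTg Foxo3+/- across and in Tg Foxo3-/- minus NoTg Foxo3+/- up. Red points (147) were called in the same direction in both, blue points (22) approached the heterozygote and grey points (36) lay between; the solid line marks equal differences and the dashed line marks 0.5 of the plain null's.

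Oocyte genes were among those higher in the transgenic null, though not in every list. Of 5 tested genes of the zona pellucida and egg surface, 4 rose in Tg Foxo3-/- and 0 fell, with a list median of 0.53 log2 against 0.01 over all 12173 tested genes, of which 185 were called higher (1.52%) and 505 lower (4.15%). All 4 were called in the authors' values and 1 under median scaling. Zp3, the zona protein that forms filaments with Zp2, read 13.86, 13.86 and 13.84 log2 intensity in Tg Foxo3-/-, 13.69, 13.85 and 13.80 in NoTg Foxo3-/-, and 13.28, 13.18 and 13.22 in NoTg Foxo3+/-. Both null groups were above every NoTg Foxo3+/- array and overlapped each other. The rise was 0.63 ± 0.09 (SE) log2, or 1.54-fold, in Tg Foxo3-/- against NoTg Foxo3+/- (limma adjusted p = 0.0022), beside a difference of 0.55 in the plain null.

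Zp1, the protein that crosslinks zona filaments, read 12.14, 12.01 and 12.06 in Tg Foxo3-/-, 12.10, 12.18 and 11.96 in NoTg Foxo3-/-, and 11.59, 11.60 and 11.43 in NoTg Foxo3+/-. Here too the null groups overlapped, at a difference of -0.01 log2 between them, and both lay above the heterozygote (0.53 ± 0.10 SE, limma adjusted p = 0.00711 for Tg Foxo3-/-). The sperm receptor gene Izumo1r rose by 0.79 log2 (adjusted p = 0.00711) and the tetraspanin gene Cd9, needed for sperm and egg fusion in the mouse, by 0.52 log2 (adjusted p = 0.0131). Zp2 was dim here, at mean levels of 4.66 log2 in Tg Foxo3-/- and 4.94 in NoTg Foxo3+/-, and was not called (-0.28, adjusted p = 0.365). The summed linear level of the list was 20643 to 21053 in Tg Foxo3-/-, 19293 to 21130 in NoTg Foxo3-/- and 13444 to 14086 in NoTg Foxo3+/- arrays.

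Genes of the subcortical maternal complex, which the growing oocyte stores for the embryo, were called higher in 2 of 7 tested cases and lower in 0. Khdc3, a scaffold member of the complex, read 11.15, 10.84 and 11.11 in Tg Foxo3-/-, 10.98, 10.98 and 10.75 in NoTg Foxo3-/-, and 10.49, 10.62 and 10.13 in NoTg Foxo3+/- ovaries. Its rise was 0.62 ± 0.13 log2 (SE, limma adjusted p = 0.0126) in Tg Foxo3-/-, although it was not called in the plain null (0.49, adjusted p = 0.09). Tle6, another member, rose by 0.39 log2 (adjusted p = 0.0449), and lost that call in 12 of 23 other settings.

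Regulators and stored maternal products gave mixed counts. Dnmt1, the maintenance DNA methyltransferase, read 12.50, 12.47 and 12.48 in Tg Foxo3-/-, 12.68, 12.53 and 12.71 in NoTg Foxo3-/-, and 12.01, 11.97 and 12.04 in NoTg Foxo3+/-. All Tg Foxo3-/- arrays lay above all heterozygous ones and below all plain null ones. Its rise was 0.48 ± 0.09 log2 (SE, limma adjusted p = 0.00616), and it was the called member among 6 tested DNA methylation genes. The pluripotency factor Pou5f1, expressed in growing oocytes, rose by 0.62 log2 (adjusted p = 0.00854) and the germ cell RNA-binding protein gene Ybx2 by 0.51 (adjusted p = 0.0187), which made 2 of 15 early germ cell regulators. The secreted factor Gdf9 was not called (0.27, adjusted p = 0.126), and Oosp2 was the 1 of 7 oocyte-secreted genes that rose (0.38, adjusted p = 0.0409), a call lost in 12 of 23 other settings.

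Some germ cell genes fell instead. Among 18 other maternal-effect genes, Pabpn1l, a poly(A)-binding protein of oocytes, and Omt2b rose, while Oog4 and Nlrp9b fell. Oog4 had 5.97, 6.41 and 6.41 log2 intensity in Tg Foxo3-/- and 7.26, 7.70 and 8.05 in NoTg Foxo3+/- ovaries (-1.41, limma adjusted p = 0.00264). The synaptonemal complex gene Syce1 fell by 1.06 log2 (adjusted p = 0.00576), the called member among 9 meiosis genes. In the piRNA pathway, Tdrkh rose (0.59, adjusted p = 0.0085) and Gtsf1 fell (-0.59, adjusted p = 0.0307, lost in 8 of 23 other settings). Gtsf1 read 8.13, 7.92 and 7.85 in Tg Foxo3-/-, against 8.79, 8.69 and 8.64 in NoTg Foxo3-/- and 8.57, 8.54 and 8.55 in NoTg Foxo3+/-, so the transgenic null stood apart from both other groups.

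**Figure D3:**
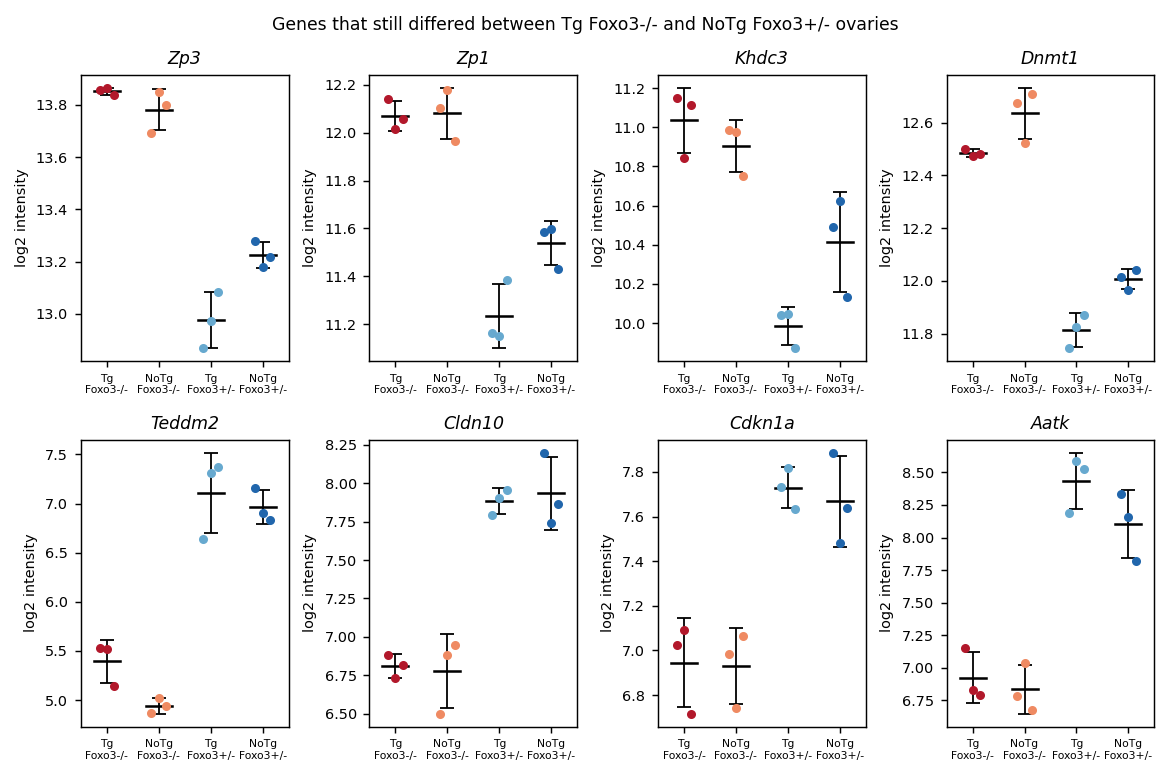
Log2 intensity of 8 genes on every array (points), with the group mean (line) and SD (bars, n = 3), for the groups Tg Foxo3-/-, NoTg Foxo3-/-, Tg Foxo3+/- and NoTg Foxo3+/-. Zp3, Zp1, Khdc3 and Dnmt1 lie higher and Teddm2, Cldn10, Cdkn1a and Aatk lower in Tg Foxo3-/- than in NoTg Foxo3+/-, close to the level in NoTg Foxo3-/-.

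The 250 bases before the start of 4 genes are shown so that a rise that remained in a bright zona gene, the rise of a maternal complex gene, the largest named fall that remained and a gene that approached the heterozygote can be set side by side. They are RefSeq sequences of assembly GRCm38.p6, written 5′ to 3′ on the strand of the gene. Capitals mark the E-box CANNTG, the motif through which FIGLA is known to activate zona genes in mouse oocytes, and the forkhead motif GTAAACA or its reverse complement TGTTTAC. The E-box is its own reverse complement, and matches may overlap. The windows are chr5:135979855-135980104 on the plus strand for Zp3, chr9:73102148-73102397 on the plus strand for Khdc3, chr1:153851196-153851445 on the minus strand for Teddm2 and chr15:78855530-78855779 on the minus strand for Lgals2.
Zp3: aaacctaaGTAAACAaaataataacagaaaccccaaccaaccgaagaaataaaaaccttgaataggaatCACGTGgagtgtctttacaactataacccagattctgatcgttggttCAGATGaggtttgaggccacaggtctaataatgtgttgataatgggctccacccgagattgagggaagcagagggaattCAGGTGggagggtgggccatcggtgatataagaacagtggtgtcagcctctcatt
Khdc3: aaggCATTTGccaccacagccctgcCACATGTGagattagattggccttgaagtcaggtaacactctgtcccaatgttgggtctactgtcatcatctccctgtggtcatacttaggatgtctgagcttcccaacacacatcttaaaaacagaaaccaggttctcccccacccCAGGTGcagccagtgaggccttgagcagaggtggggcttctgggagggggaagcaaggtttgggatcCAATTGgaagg
Teddm2: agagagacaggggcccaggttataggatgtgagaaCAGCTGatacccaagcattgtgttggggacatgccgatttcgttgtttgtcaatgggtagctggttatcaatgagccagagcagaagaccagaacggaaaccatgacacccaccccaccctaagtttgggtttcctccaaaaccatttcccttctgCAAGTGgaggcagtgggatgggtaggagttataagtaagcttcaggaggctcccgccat
Lgals2: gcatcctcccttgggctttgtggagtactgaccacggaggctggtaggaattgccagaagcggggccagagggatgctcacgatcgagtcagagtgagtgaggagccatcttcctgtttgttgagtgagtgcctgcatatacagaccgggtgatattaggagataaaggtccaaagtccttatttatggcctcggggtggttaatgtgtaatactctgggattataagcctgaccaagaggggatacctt

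The Zp3 window held 3 E-boxes and 1 forkhead motif, the latter 242 bases before the start. Khdc3 had 5 E-boxes, Teddm2 2 and Lgals2 0, and none of these 3 windows held the forkhead motif. Over the promoters of all tested genes, 59.1% of 12494 windows held an E-box and 2.22% the forkhead motif. Among null changes that remained higher, 47 of 64 windows (73.4%) held an E-box and 3 (4.69%) a forkhead motif. Among those that remained lower, the counts were 41 of 75 (54.7%) and 1 (1.33%), and among those that approached, 14 of 19 (73.7%) and 0. Promoters were matched for 46 of 58, 50 of 60 and 13 of 20 genes, in that order. These shares are descriptions of letters in short windows and were not tested.

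Beyond the listed oocyte genes, the null rises that remained were of varied function. Acaa1b, a peroxisomal thiolase, read 7.59, 7.48 and 7.65 in Tg Foxo3-/-, 7.75, 7.78 and 7.66 in NoTg Foxo3-/-, and 6.81, 6.83 and 6.39 in NoTg Foxo3+/- (0.90 log2 for Tg Foxo3-/-, limma adjusted p = 0.00462). Sgsm1, a regulator of small GTPases, read 8.08, 7.95 and 8.01 in Tg Foxo3-/-, against 7.14, 7.15 and 6.74 in NoTg Foxo3+/- (1.0 log2, adjusted p = 0.0022). Both sets of arrays were well apart. The calcium sensor gene Efcab6 (0.94), the surface receptor gene Cd7 (0.96), the copine gene Cpne9 (0.80), the synaptic scaffold gene Homer2 (0.79), the phospholipase gene Plcg2 (0.75), the microvillus protein gene Vil1 (0.69) and Lypd3 (0.66), which encodes a surface protein, also remained high. Olfr247, Pla2g4c, Rwdd2a and Jazf1, named for the size of their change in the plain null, had log2 differences of 0.70 to 1.0. Ccdc27, at 0.88, was a further one.

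Several of the largest rises were not null changes, although the plain null differed in the same direction. Zfp541, a zinc finger factor of germ cells, rose by 1.0 log2 (limma adjusted p = 0.00658), beside 0.58 (adjusted p = 0.15) in NoTg Foxo3-/-. The membrane protein gene Ninj2 rose by 0.95 beside 0.61, and Igfals, an IGF-binding partner, by 0.92 beside 0.78. Hsd11b2, the enzyme that inactivates glucocorticoids, was different. Its values were 8.41, 9.30 and 8.81 in Tg Foxo3-/-, 7.72, 8.20 and 7.95 in NoTg Foxo3-/-, and 7.93, 7.72 and 7.97 in NoTg Foxo3+/-. Every Tg Foxo3-/- array was above all arrays of both other groups, and the plain null differed by 0.08 from the heterozygote. The rise of 0.96 log2 (adjusted p = 0.0351) lost its call in 9 of 23 other settings, and the direct difference from NoTg Foxo3-/- (0.88) was not called (adjusted p = 0.158).

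The falls that remained were led by Teddm2, a gene for a membrane protein. It read 5.53, 5.52 and 5.14 in Tg Foxo3-/-, 4.86, 5.02 and 4.94 in NoTg Foxo3-/-, and 7.16, 6.90 and 6.84 in NoTg Foxo3+/- ovaries. All 3 Tg Foxo3-/- arrays lay a little above the plain null and far below the heterozygote (-1.57 ± 0.19 SE, or 2.97-fold lower, limma adjusted p = 0.00129). Spint4, a protease inhibitor gene of the reproductive tract, was detected on 0 of 3 Tg Foxo3-/- arrays and on 3 of 3 NoTg Foxo3+/- arrays. It was at least 1.99-fold lower (adjusted p = 0.00129), a bound set by the dimmest detected signals. Omg, a myelin glycoprotein gene, was likewise detected on 0 of 3 Tg Foxo3-/- arrays and on 3 of 3 NoTg Foxo3+/- arrays, and its fall was by at least 1.63-fold (adjusted p = 0.00411).

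Aatk, a kinase gene linked to apoptosis, read 7.15, 6.83 and 6.79 in Tg Foxo3-/-, 6.79, 7.04 and 6.68 in NoTg Foxo3-/-, and 8.34, 8.15 and 7.82 in NoTg Foxo3+/- (-1.18, limma adjusted p = 0.00221). The null groups overlapped and the heterozygote stood apart. Slc27a2, a fatty acid transporter and acyl-CoA synthetase, and the hepcidin gene Hamp2 each fell by 0.91 log2. The vesicle gene Ap3b2 fell by 0.85, Sppl2a, an intramembrane protease, by 1.0, and Tm4sf5 by 0.79, the last a call lost in 8 of 23 other settings. Rab25, a trafficking GTPase of epithelia, fell by 0.59 beside -0.98 in the plain null.

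Known FOXO target genes lay low more often than high. Of 27 tested, 5 fell and 0 rose, where 4.15% of all tested genes fell. Below 0 were 21 (47.7% of all tested genes were), and the list median was -0.14 log2 against 0.01 over all genes. Cdkn1a, the cell-cycle inhibitor p21 and a textbook FOXO target, read 7.02, 7.09 and 6.72 in Tg Foxo3-/-, 6.98, 6.74 and 7.07 in NoTg Foxo3-/-, and 7.89, 7.48 and 7.64 in NoTg Foxo3+/-. It was level between the null groups, at a difference of 0.01, and fell by 0.72 ± 0.16 log2 (SE, limma adjusted p = 0.0132) against the heterozygote. Its other 2 tested probes were not called, at -0.14 and -0.11. The list median was also below 0 under both other scalings, with 3 members called lower in the authors' values and 0 under median scaling.

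Ccng2, an atypical cyclin that slows division, read 5.04, 4.68 and 4.96 in Tg Foxo3-/-, against 5.68, 5.64 and 6.14 in NoTg Foxo3+/- (-0.92, limma adjusted p = 0.00797). The repressor gene Bcl6 fell by 0.80 (adjusted p = 0.0257), the autophagy gene Map1lc3b by 0.69 (adjusted p = 0.0193) and the TGF-beta receptor gene Tgfbr1 by 0.45 (adjusted p = 0.0223, lost in 8 of 23 other settings). A dimmer probe of Tgfbr1 was called at -1.40 (adjusted p = 0.0022), and another was not called, at -0.05 (adjusted p = 0.922). Of the 5 list members that fell, Cdkn1a alone was a null change. The summed level of the list was 27493 to 31026 in Tg Foxo3-/- and 31219 to 35922 in NoTg Foxo3+/- arrays. No call was made among 18 Kit and PI3 kinase pathway genes (0 higher, 0 lower), with Kit itself at 0.23 log2 (adjusted p = 0.308).

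**Figure D4:**
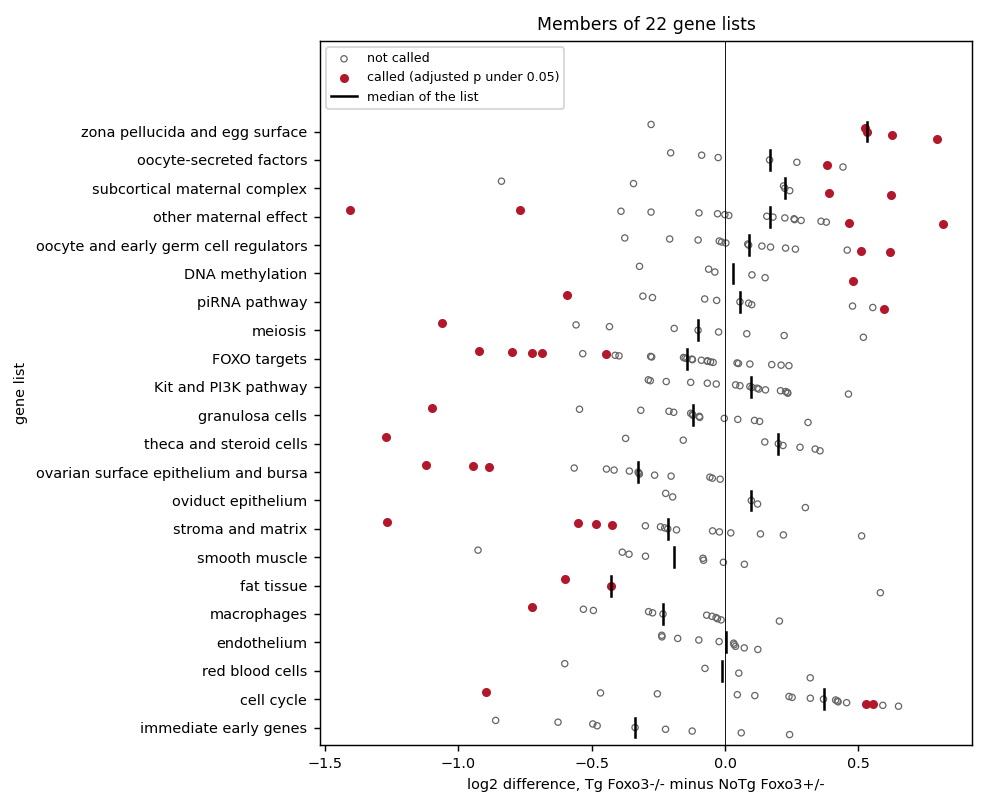
Log2 difference of every tested gene of 22 gene lists between Tg Foxo3-/- and NoTg Foxo3+/- (filled red points called, open points not called), with the list median as a bar. Called members of the zona list lie above 0, while those of the FOXO target, surface epithelium and stroma lists lie below 0.

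Genes of the ovarian surface epithelium and bursa, the cell layers that cover the ovary, were low as a list. All 15 tested members were below 0 and 3 fell, with a median of -0.33 log2. Of all tested genes, 47.7% were below 0 and 4.15% fell. Under median scaling 14 were below 0 and 1 was called lower, and in the authors' values the counts were 15 and 3. In NoTg Foxo3-/- against NoTg Foxo3+/- the median was -0.47 with 4 called lower, and in Tg Foxo3-/- against NoTg Foxo3-/- it was 0.17. Summed levels were 3374 to 4066 in Tg Foxo3-/-, 3278 to 3572 in NoTg Foxo3-/- and 4787 to 5112 in NoTg Foxo3+/-. The keratin genes Krt8 and Krt18, defining markers of this layer, were at -0.32 and -0.45 log2 and were not called, and the mesothelial gene Upk3b was at -0.06. How much of the covering layers each dissected ovary kept was not tested.

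Cldn10, a tight junction protein, was the member that fell most among null changes. It read 6.89, 6.73 and 6.82 in Tg Foxo3-/-, 6.50, 6.88 and 6.95 in NoTg Foxo3-/-, and 8.20, 7.74 and 7.86 in NoTg Foxo3+/- (-1.12 ± 0.16 SE, 2.18-fold lower, limma adjusted p = 0.0022). The null groups overlapped and differed by 0.03. Its other 2 probes also fell, by 0.63 and 0.61. The chloride channel gene Cftr read 6.78, 6.56 and 6.79 in Tg Foxo3-/-, 6.67, 6.42 and 6.52 in NoTg Foxo3-/-, and 7.78, 7.65 and 7.36 in NoTg Foxo3+/- (-0.88, adjusted p = 0.0116). Aldh1a1, a retinoic acid synthesis enzyme, fell by 0.94 log2 (adjusted p = 0.00605).

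The 22 null changes that approached the heterozygote included other genes of these surface layers. By construction their transgenic null values were far from the plain null's, and all 22 had an unadjusted p under 0.05 in Tg Foxo3-/- minus NoTg Foxo3-/-, so that count is no independent support. The Tg Foxo3-/- arrays were apart from the NoTg Foxo3-/- arrays at 17 of the 22 probes, where 17.6% of all tested probes were apart. They were still apart from the NoTg Foxo3+/- arrays at 13 of the 22, with no share over all probes counted for this pair of groups. The 22 were chosen for a large difference from these same NoTg Foxo3+/- arrays, so this count is description only. Approach was defined by size and did not require an equal level. In no case other than Myo5b did the direct test against the plain null pass after adjustment.

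Lgr5, the R-spondin receptor that marks surface epithelial progenitors of the mouse ovary, read 6.88, 7.02 and 6.83 in Tg Foxo3-/-, 6.15, 6.19 and 5.95 in NoTg Foxo3-/-, and 7.14, 6.97 and 7.42 in NoTg Foxo3+/-. The Tg Foxo3-/- arrays overlapped the heterozygote and were all above the plain null. The difference from the heterozygote was -0.26 (limma adjusted p = 0.464), beside -1.08 in the plain null, and the direct difference between the null groups was 0.82 (adjusted p = 0.0833). Gng13, a G protein gamma subunit, read 8.31, 8.79 and 8.39 in Tg Foxo3-/-, 7.55, 7.24 and 7.61 in NoTg Foxo3-/-, and 8.82, 8.61 and 8.93 in NoTg Foxo3+/- (direct difference 1.03, adjusted p = 0.0879).

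Lgals2, a galectin, read 7.23, 7.49 and 7.37 in Tg Foxo3-/-, 6.78, 6.75 and 6.82 in NoTg Foxo3-/-, and 7.87, 7.72 and 7.47 in NoTg Foxo3+/-. The transgenic null lay above every plain null array and overlapped the heterozygote, and the promoter window of Lgals2 is the one shown above without either motif. Hsd17b2, which oxidises estradiol to estrone, read 5.82, 5.85 and 5.66 in Tg Foxo3-/-, 5.28, 5.11 and 5.42 in NoTg Foxo3-/-, and 6.58, 6.34 and 5.87 in NoTg Foxo3+/- ovaries. For Hsd17b2 the Tg Foxo3-/- arrays lay above every plain null array and below every NoTg Foxo3+/- array. The difference from the heterozygote was -0.32 (limma adjusted p = 0.264) for Lgals2 and -0.49 (adjusted p = 0.153) for Hsd17b2, beside -0.90 and -1.0 in the plain null. Hsd17b2 was thus just inside the limit of 0.5 times the null change.

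Ccl21a and Angpt2 were also in this class. Ccl21a, a chemokine of lymphatic vessels, read 11.02, 10.96 and 11.27 in Tg Foxo3-/-, 10.68, 8.68 and 10.65 in NoTg Foxo3-/-, and 11.58, 11.43 and 11.49 in NoTg Foxo3+/-. A single plain null array, at 8.68, set most of its null change. Angpt2, a modulator of vessel growth, read 10.20, 10.67 and 10.50 in Tg Foxo3-/-, 9.82, 9.71 and 10.17 in NoTg Foxo3-/-, and 10.73, 10.60 and 10.84 in NoTg Foxo3+/-. A dimmer probe of Angpt2 was not called in the plain null (-0.49, limma adjusted p = 0.415). Cfap161, Zmat4, Pcp4l1, Klhl24 and Ctsf were the other lower members seen with a gene's brightest probe, at -0.38 to -0.27 log2 in Tg Foxo3-/- minus NoTg Foxo3+/- beside -0.86 to -0.60 in the plain null. Dimmer probes of Bpifb4, Prxl2a, Clpx and Aldh1a2 and 1 unnamed probe completed the 16 lower members.

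On the higher side, Uhrf1, the partner that guides Dnmt1 to newly replicated DNA, read 12.92, 12.80 and 12.81 in Tg Foxo3-/-, 13.18, 13.14 and 13.04 in NoTg Foxo3-/-, and 12.73, 12.77 and 12.73 in NoTg Foxo3+/-. The Tg Foxo3-/- arrays were between the other groups without overlap. The difference from the heterozygote was 0.10 (limma adjusted p = 0.528), beside 0.38 in the plain null. Plekhg2 read 10.66, 10.61 and 10.59 in Tg Foxo3-/-, 10.89, 10.97 and 10.80 in NoTg Foxo3-/-, and 10.49, 10.48 and 10.31 in NoTg Foxo3+/-. Dimmer probes of Cep43, Afg3l2 and Myo5b and 1 unnamed probe completed the 6 higher members.

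**Figure D5:**
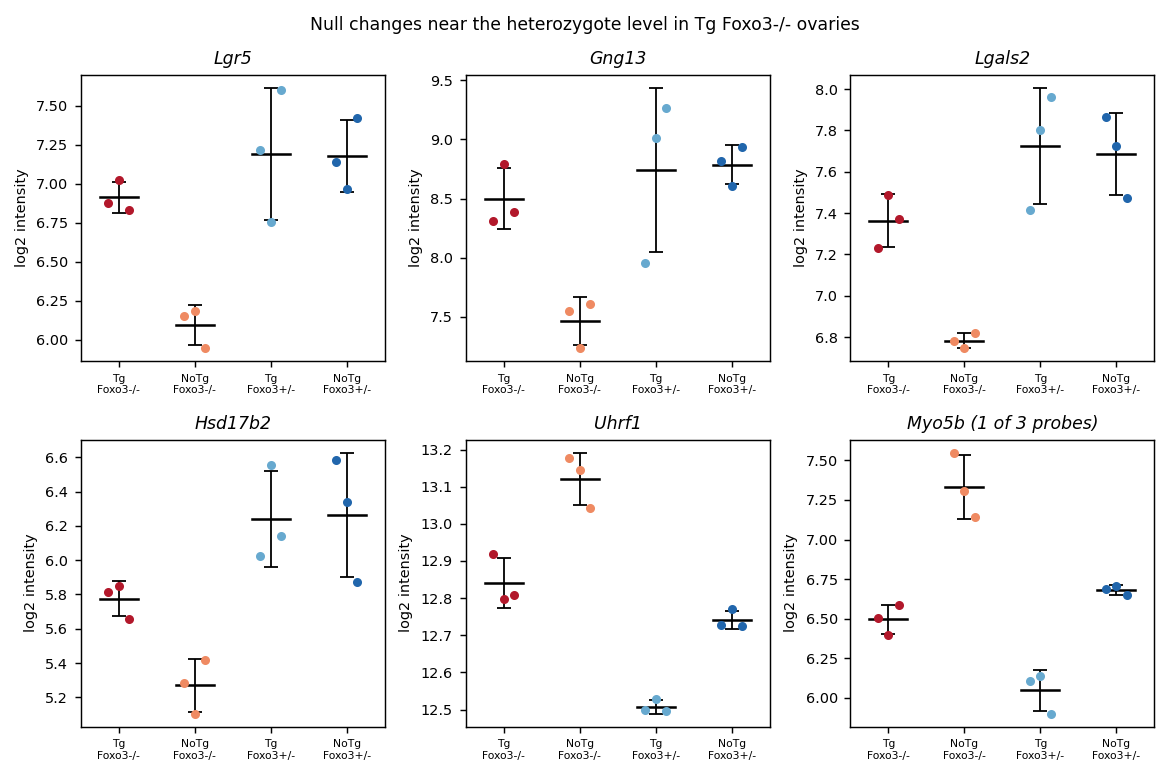
Log2 intensity of 6 null changes that approached the heterozygote, on every array (points), with the group mean (line) and SD (bars, n = 3), in the group order Tg Foxo3-/-, NoTg Foxo3-/-, Tg Foxo3+/- and NoTg Foxo3+/-. Lgr5, Gng13, Lgals2 and Hsd17b2 are lowest in NoTg Foxo3-/-, and Uhrf1 and the shown probe of Myo5b are highest there.

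The probe of Myo5b, a myosin motor of apical recycling, that passed the direct test read 6.50, 6.40 and 6.58 in Tg Foxo3-/-, 7.55, 7.30 and 7.14 in NoTg Foxo3-/-, and 6.69, 6.71 and 6.65 in NoTg Foxo3+/-. The direct difference was -0.84 (limma adjusted p = 0.0348), which carried the transgenic null slightly below the heterozygote (-0.19, adjusted p = 0.508). The gene's brightest probe went another way, rising by 0.60 log2 in Tg Foxo3-/- against NoTg Foxo3+/- (adjusted p = 0.0202) and differing by 0.04 between the null groups. Another probe was not called, at -0.04, nor in the plain null (0.34, adjusted p = 0.295) or between the null groups (-0.38, adjusted p = 0.352). It read 5.63, 5.50 and 5.45 in Tg Foxo3-/-, below every plain null array (5.92, 5.75 and 6.02). In Tg Foxo3+/- the probe that passed read 6.11, 6.14 and 5.90, also below NoTg Foxo3+/-. The return was thus called with 1 of 3 probes, and whether the probes read different transcripts is not known here.

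Aldh1a2, another retinoic acid synthesis enzyme, was chosen after its values were seen, and its difference from Aldh1a1 was not tested. By their brightest probes neither was a null change (limma adjusted p = 0.0522 for Aldh1a2 and 0.0584 for Aldh1a1 in the plain null). Aldh1a2 was at -0.02 log2 in Tg Foxo3-/- minus NoTg Foxo3+/- (adjusted p = 0.956). It read 7.39, 7.57 and 7.25 in Tg Foxo3-/-, 6.81, 6.90 and 6.79 in NoTg Foxo3-/-, and 7.43, 7.50 and 7.34 in NoTg Foxo3+/-. A dimmer probe, which was a null change, differed by 0.03 from the heterozygote and by 0.78 from the plain null (adjusted p = 0.0511). Aldh1a1 read 9.22, 9.39 and 9.09 in Tg Foxo3-/-, 9.45, 9.30 and 9.61 in NoTg Foxo3-/-, and 9.76, 10.14 and 10.62 in NoTg Foxo3+/-, where the null groups overlapped and both were lower than the heterozygote.

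Most falls in the comparison were not null changes. Of 869 lower probes, 72 were also called in the plain null and 38 also in Tg Foxo3-/- against NoTg Foxo3-/-. Each difference is the sum of a null step (NoTg Foxo3-/- minus NoTg Foxo3+/-) and a transgene step (Tg Foxo3-/- minus NoTg Foxo3-/-). For the 354 higher probes the median difference of 0.60 log2 was split into 0.48 and 0.12, and the null step was the larger for 315. For the 869 lower probes the medians were -0.74 in all, -0.31 for the null step and -0.44 for the transgene step, which was the larger for 526.

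Slc18a2, which encodes the vesicular monoamine transporter, fell in the transgene step. It read 9.43, 9.20 and 9.14 in Tg Foxo3-/-, 10.61, 10.60 and 10.56 in NoTg Foxo3-/-, and 10.04, 10.34 and 10.68 in NoTg Foxo3+/-. The transgenic null was below all arrays of both other groups, by 1.10 log2 against NoTg Foxo3+/- (limma adjusted p = 0.00462) and by 1.33 against NoTg Foxo3-/- (adjusted p = 0.0147). Crabp1, a cellular retinoic acid binding protein, went down in both steps, with 5.59, 5.85 and 5.19 in Tg Foxo3-/-, 6.33, 6.34 and 5.95 in NoTg Foxo3-/-, and 6.85, 7.0 and 7.07 in NoTg Foxo3+/- (-1.43, adjusted p = 0.00206). Fgl2, a fibrinogen-like immune regulator, fell by 1.42 (adjusted p = 0.00263), of which -0.38 was the null step and -1.03 the transgene step (adjusted p = 0.0528). Adgra2, Cyfip2, Rpl22l1, Morf4l1b and Nkiras1 had falls of -1.37 to -1.30.

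Many of these falls were largest against 1 heterozygous array. NoTg Foxo3+/- replicate 3 was the highest of its group at 670 of the 869 lower probes (77.1%), where it was highest at 36.8% of all probes tested. Among the 797 lower probes that were not null changes it was highest at 642 (80.6%), but among the 72 that remained at 28 (38.9%). The mitochondrial enzyme gene Dld, for example, read 6.48, 6.52 and 6.19 in Tg Foxo3-/- and 7.33, 7.33 and 8.51 in NoTg Foxo3+/-. Likewise the progesterone receptor membrane component gene Pgrmc1 read 7.94, 7.50 and 7.42 in Tg Foxo3-/- and 8.52, 8.68 and 9.57 in NoTg Foxo3+/-. The rises leaned on NoTg Foxo3+/- replicate 3 as well. It was the lowest of its group at 191 of the 354 higher probes (54.0%), where it was lowest at 39.7% of all probes tested. Among the 75 rises that remained it was lowest at 44 (58.7%). Without that array 410 probes were called, 118 higher and 292 lower, the null changes numbered 64 and 46 of them remained. Such drops were not particular to it. Without Tg Foxo3-/- replicate 1, 2 or 3 the calls numbered 594, 530 and 346. Without NoTg Foxo3+/- replicate 1 or 2 they numbered 1067 and 840, with 60 and 35 null changes, of which 56 and 31 remained. Tg Foxo3-/- replicate 3 was lowest of its group at 448 of the 869 lower probes (51.6%), with no share over all probes counted.

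Probes of the same gene also differed in how well they agreed. Where a gene called higher had other, dimmer probes, 96 of 114 of these (84.2%) had the same sign. For genes called lower it was 159 of 271 (58.7%), with a median of -0.07 log2 in the other probes beside -0.66 in the brightest. Among genes not called, the same share was 69.3% above 0 and 50.6% below 0. For falls that were null changes and remained, 24 of 31 other probes (77.4%) agreed in sign, and for falls that were not null changes 135 of 240 (56.3%).

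A comparison that shares no array with this one carries the transgene the other way round. NoTg Foxo3-/- against Tg Foxo3+/- called 1063 probes (4.72% of those tested), 630 higher (2.8%) and 433 lower (1.92%). With the same sign as in Tg Foxo3-/- minus NoTg Foxo3+/-, 159 higher probes were shared, 44.9% of 354 and 25.2% of 630. On the lower side 74 were shared, 8.52% of 869 and 17.1% of 433, while 84 that fell in Tg Foxo3-/- were called higher in NoTg Foxo3-/- against Tg Foxo3+/-. The corresponding count on the higher side was 0.

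Khdc3 was 1 of the shared rises, at 0.92 log2 in NoTg Foxo3-/- minus Tg Foxo3+/- (limma adjusted p = 0.000995). Other shared rises that were not null changes by their brightest probe were Izumo1r, Pabpn1l, Tdrkh, Omt2b, Oosp2, Zfp541 and Ninj2. Shared falls included Teddm2 (-2.17), Aatk (-1.60), Cldn10 (-1.11) and Cdkn1a (-0.80), as well as Spint4, Omg, Slc27a2, Hamp2 and Cftr. All of these were called between Foxo3-/- and Foxo3+/- ovaries in both pairings, whichever side carried the transgene.

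Some stromal and fat markers were called lower. Of 15 stroma and matrix genes, 4 fell and 0 rose, where 4.15% of all tested genes fell. The list median was -0.22 log2. None of the 4 calls was made in the authors' values or under median scaling (0 called lower in each). Dcn, the proteoglycan decorin, read 13.37, 13.18 and 13.21 in Tg Foxo3-/- and 13.71, 13.61 and 13.90 in NoTg Foxo3+/- (-0.49, limma adjusted p = 0.00981). Col3a1 read 8.18, 8.69 and 7.92 in Tg Foxo3-/- and 8.98, 9.14 and 10.48 in NoTg Foxo3+/-, where replicate 3 again stood highest. The sum over the stroma list was 39360 to 40727 in Tg Foxo3-/-, 39225 to 41228 in NoTg Foxo3-/- and 46766 to 53039 in NoTg Foxo3+/- arrays. Lpl (-0.43, adjusted p = 0.0442) and Scd1 (-0.60, adjusted p = 0.0346) fell among 3 tested fat genes, calls lost in 12 and 9 of 23 other settings, with the defining Adipoq and Fabp4 not tested.

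Among 13 macrophage genes 12 were below 0 and 1 was called lower, where 4.15% of all genes were. It was Adgre1, the F4/80 antigen (-0.73 log2, limma adjusted p = 0.0328, lost in 8 of 23 other settings). Summed macrophage levels were 1348 to 1514 in Tg Foxo3-/- and 1561 to 2099 in NoTg Foxo3+/-. Granulosa cell genes gave 1 call in 15, Slc18a2, and sums of 48433 to 53130 in Tg Foxo3-/- and 53195 to 57767 in NoTg Foxo3+/-. Theca and steroid genes also gave 1 call in 9, a fall of Hsd3b1 by 1.27 (adjusted p = 0.00759). As a list they did not fall, with 6 of the 9 above 0 and a median of 0.20 log2. Hsd3b1 read 6.48, 6.35 and 6.46 in Tg Foxo3-/- and 7.49, 7.27 and 8.35 in NoTg Foxo3+/-, where replicate 3 stood highest. Endothelium (10 tested), smooth muscle (8), oviduct (5), red blood cell (4) and immediate early genes (9) gave 0 calls in either direction. The part of these cell types in the other results was not tested.

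In the cell cycle list, 2 of 17 genes rose and 1 fell. As a list it lay high, with 14 of the 17 above 0, where 6363 of all 12173 tested genes were. The list median was 0.37 log2 against 0.01 over all genes, and 0.36 in NoTg Foxo3-/- minus NoTg Foxo3+/-. Under median scaling and in the authors' values 14 were also above 0, with medians of 0.39 and 0.30. Plk1, a mitotic kinase, rose by 0.53 log2 (limma adjusted p = 0.0283), Ccne1, the S-phase cyclin, by 0.55 (adjusted p = 0.0486), and Pcna, the polymerase clamp, fell by 0.90 (adjusted p = 0.0351). Pcna read 5.70, 5.83 and 5.66 in Tg Foxo3-/- and 6.29, 6.41 and 7.18 in NoTg Foxo3+/-. Each of the 3 calls was lost in 8 or more of 23 other settings, 17 in the case of Ccne1.

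Genes near Foxo3 on its chromosome were counted separately. Of the 101 tested genes within 50 tested genes of Foxo3 on either side, 0 were null changes that remained, where 96 of 12164 genes were. Of the same 101, 7 (6.93%) were called in Tg Foxo3-/- against NoTg Foxo3+/-, where 690 of 12164 genes (5.67%) were called. Both counts were near the shares over all genes. Chromosome 10, which holds Foxo3, had 4.78% of all tested genes, 6.25% of those that remained and 5.80% of those called.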

How the data were processed

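The deposited table gave 1 raw, linear intensity for each probe on each array and, per the file headers, a detection p-value, which moves in steps of 0.00107. The authors' normalized intensity table, made by a method not given in the sources used here, served as an alternative after taking log2. Columns without a sample numbered 0. With limma 3.58.1 in R 4.3.3, the raw intensity was corrected by the normal-exponential model from the detection p-values (offset 16), quantile-normalized and put on the log2 scale. Of 45281 probes, the test took in 22511 that had a detection p-value under 0.05 on 3 or more arrays. By the array's annotation, 34885 probes had 1 gene symbol, 18 several and 10378 none, and 34807 were matched to RefSeq (GRCm38.p6). A gene is represented by its brightest tested probe unless stated.

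One model with 4 group means was fitted to all 12 arrays (lmFit, then eBayes with an intensity trend). Alternatives were 11 other settings and leaving out each of the 12 arrays. Named genes are the 12 largest rises and falls whose arrays do not overlap, up to 12 null changes a class and direction, and for each of 22 lists (311 symbols, 1 unmatched, 4 by an older name) the called members and up to 4 others. Aldh1a2, the cell type markers' levels and the other probes of named genes were added after their values were seen. The members, lists and rules were chosen with earlier results of these data known. On simulated data for this comparison, over 22511 probes, 72% of changes of 1 log2 and 26% of changes of 0.6 were recovered. The simulation had 100 changed probes of each size, independent noise and no background split between groups, so recovery in the real arrays may differ. Nothing in the labels says that samples came from separate animals, and the p-values then reflect only sample-to-sample spread, which may be technical. The number of arrays limits the precision. Whether replicate numbers pair samples is not known. Correlations of deviations were -0.18 to 0.26 over 18 pairs, 6 over 0.1. Between Tg Foxo3-/- and NoTg Foxo3+/- they were -0.18 to 0.06, and between NoTg Foxo3+/- and NoTg Foxo3-/- they were 0.18, 0.20 and 0.17. With replicate number as a block, the null changes numbered 245 in place of 205. Identical pairs of arrays numbered 0.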

Additional observations from a re-analysis of the deposited data

How the results depend on the processing

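The count of 1223 probes between Tg Foxo3-/- and NoTg Foxo3+/- became 66 under median scaling, 795 in the authors' values, 786 without the filter on dim probes, 3236 with array weights, 743 with 1 probe per gene and 0 with array background as a covariate. The 205 null changes became 62 under median scaling, 89 without the filter, 47 with the compared groups alone, 748 with array weights and 16 with the covariate. The 43 probes of the direct test became 0 under median scaling (2057 at an unadjusted p under 0.05), 366 in the authors' values, 22 without the filter, 80 with a stricter filter, 511 with array weights, 13 with 1 probe per gene and 0 with the covariate (737 unadjusted). Those that remained (147) numbered 24, 65, 41, 512 and 0 under median scaling, no filter, the compared groups alone, array weights and the covariate, and those that approached (22) numbered 3, 7, 4, 151 and 6. Probes moved back (1) numbered 0 under median scaling, no filter, 1 probe per gene and the covariate, 7 in the authors' values, 2 with the stricter filter, 23 with array weights and 2 without the intensity trend. The 233 probes shared with NoTg Foxo3-/- minus Tg Foxo3+/- numbered 29, 133, 130, 611 and 0 under median scaling, no filter, the compared groups alone, array weights and the covariate. The cause of these shifts was not tested, except that the settings without a filter and with 1 probe per gene tested other numbers of probes. With 1 array left out in turn, the counts ranged over 346 to 1690 (Tg Foxo3-/- against NoTg Foxo3+/-, lowest without Tg Foxo3-/- replicate 3), 35 to 342 (null changes, lowest without NoTg Foxo3+/- replicate 2), 0 to 191 (direct test), 31 to 233 (remained), 1 to 53 (approached), 0 to 5 (moved back) and 77 to 255 (shared). The background difference of -7.73 ranged over -9.63 to -6.78 in the same way, and was -7.03 by another definition of background, with the design's smallest p of 0.1 at 3 against 3. The fit with replicate number as a block called 1281 probes, with 165 remaining and 27 approaching, and changed no count by over 1.5 times. Of the named genes' differences, 0 of 76 called ones changed sign in any setting, while 22 of 95 that were not called crossed 0 in some setting, among them Foxo3, Krt18, Inha, Hsd17b2 and Zmat4. The called ones were chosen for large differences on the same arrays, which by itself tends to keep their signs. Array count and dim signal limit what can be seen for genes near background such as Spint4 and Omg.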
